A study of Arabidopsis thaliana with 12 samples.

Results

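The cytosolic ribosome's small (40S) subunit was followed here through the genes for its proteins. The member list holds 60 Arabidopsis thaliana loci in 27 protein families, named S2, S3a and so on after the published plant nomenclature. A locus was kept where a probe set of the array was assigned to it and to no other gene. That left 35 loci in 19 families, of 13286 loci with such a probe set in all, and each of the 35 had a single one. A further 11 loci were covered only by 6 probe sets shared between genes, among them the listed S16, S20 and S23 genes. The other 14 loci had no named probe set and were not analysed here. In 12 families 2 or 3 paralogs, the duplicate genes of one protein, were measured, 28 loci together.

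The small subunit reads messenger RNA: its head and body clamp the message, its body holds the decoding site and its platform lines the exit of the message and the face towards the large subunit. Each protein is needed in about equal amount, and in Arabidopsis nearly every one is encoded by several expressed paralogs. Ribosomal protein transcripts are known to be abundant in dividing and growing shoot tissue and to be scarce in dormant axillary buds. The placements in the subunit used below come from yeast and animal ribosome structures.

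The samples were rosette axillary buds of ecotype Col-8 in a Col-0 background, at the labelled developmental stage 6.00, with no transgene or mutant allele named. Bud n and bud n-2 are 2 positions on the rosette, and the samples are labelled high or low R:FR, the quantity of red relative to far-red light. Neighbours' shade makes it low. The sample labels do not give when either light ratio began or how long it lasted before harvest. All plants first spent 3 days at 4 °C; they then had an 18 h photoperiod at 185 micromoles per square metre per second, with the temperature at 24 °C in the light and 18 °C in the dark. Each of the 4 combinations had 3 ATH1 arrays, 12 in all, and the labels do not say how many plants or buds made up a sample or whether replicates came from separate cultures. The p-values below therefore measure the spread between these arrays, which may be technical, and their number limits the precision. The study's title names bud outgrowth under shade signals as its question.

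Of the markers for the labelled tissue, only CLV3 (a meristem peptide signal) and LAS (needed to form axillary meristems) of 12 listed genes had a named probe set, and both lay below the 40th percentile of the array on all 12 arrays, so the label was not borne out by a detected marker. In these whole-bud samples, fewer cells of a type and less RNA per cell cannot be told apart. On the deposited intensity scale the median of an array was between 37.8 and 38.9 for bud n and between 42.4 and 44.1 for bud n-2. The median of all probe sets thus lay higher in bud n-2 by 0.17 (log2) at high and 0.20 at low R:FR, and differences between positions are relative to that. The 25S ribosomal RNA control also separated the positions, with intensities of 1460 to 1760 for bud n and 2120 to 2910 for bud n-2. The 3-prime over 5-prime log2 ratio of the actin control averaged 1.64 at high and 1.74 at low R:FR in bud n. In bud n-2 it averaged 1.43 and 1.46, with ranges that overlapped those of bud n. For the GAPDH control this ratio averaged 0.10 and 0.19 in bud n and -0.004 and 0.04 in bud n-2, also with overlap. The GAPDH 5-prime probe set itself gave 1931 to 2321 at high and 1866 to 2126 at low R:FR in bud n. In bud n-2 it gave 1540 to 1718 at high and 1359 to 1426 at low R:FR. These bud n-2 ranges were apart from each other and from bud n. The actin 5-prime probe set overlapped between positions in both lights. Pairs of arrays of a group correlated at 0.940 to 0.956 over all probe sets, and no arrays were identical.

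All 35 loci passed the filter on low values and were tested. A difference is said to be called where the limma fit over 14295 probe sets gave a Benjamini-Hochberg adjusted p under 0.05. The median intensity of the 35 loci was 2131, 1844 and 1905 in bud n at high R:FR and 1891, 2068 and 1932 at low R:FR. In bud n-2 it was 1455, 1624 and 1439.5 at high and 1302, 1421 and 1402 at low R:FR. No array of bud n-2 reached the lowest array of bud n, and within bud n-2 the 3 low R:FR arrays lay below the 3 high R:FR arrays. Replicate 1 of bud n at high R:FR and replicate 2 of bud n-2 at high R:FR were the highest of their groups. For several comparisons the count of calls without them is given below.

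**Figure D1:**
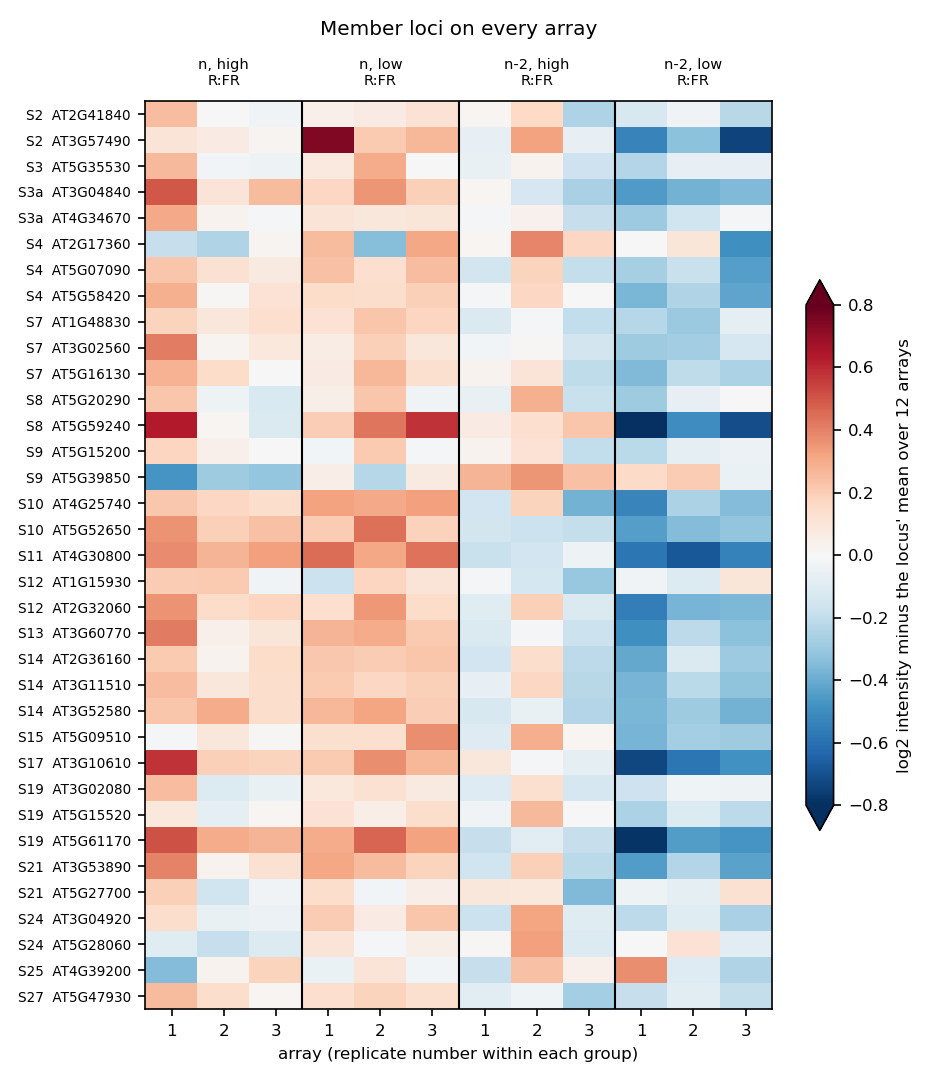
Log2 intensity of each of the 35 loci (rows, with family) on each of the 12 arrays (columns, by group and replicate number), as the difference from the locus' own mean over the arrays. Most rows are above their mean in bud n and below it in bud n-2 at low R:FR, with bud n-2 at high R:FR in between; AT5G39850 is lowest in bud n at high R:FR.

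Intensities follow in the order of replicates 1, 2 and 3, by place in the subunit. The genes of the body included the brightest and the dimmest of the set. AT5G20290, an S8 gene, gave 4668, 3884 and 3668 in bud n at high R:FR and 4125, 4656 and 3927 at low R:FR. AT5G20290 in bud n-2 gave 3836, 4877 and 3531 at high R:FR and 3281, 3819 and 4001 at low R:FR. Its 4 groups overlapped, and no comparison was called (the lowest adjusted p over the 4 comparisons of groups was 0.215). Its paralog AT5G59240 gave 42.4, 27.6 and 25.2 in bud n at high R:FR and 31.3, 36.8 and 40.8 at low R:FR. AT5G59240 in bud n-2 gave 28.6, 30.0 and 31.8 at high R:FR and 14.1, 19.3 and 16.7 at low R:FR. On all 3 arrays of bud n-2 at low R:FR this gene was below the array's 40th percentile (22 to 23), on the other 9 it was above, and the low group did not overlap any other. In bud n-2 at low R:FR it was at least 1.33-fold lower than at high R:FR and at least 1.6-fold lower than in bud n, where the fit to the listed values gave adjusted p = 0.0152 and 0.000253. With dim values raised to the percentile the first of these calls was lost (log2 difference -0.41, adjusted p = 0.126) and the second kept (-0.68, 0.00278).

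S2 sits where the message enters and in yeast affects reading accuracy. AT3G57490, an S2 gene, gave 344, 335 and 325 in bud n at high R:FR and 534, 369.7 and 385 at low R:FR. AT3G57490 in bud n-2 gave 306, 400.3 and 305 at high R:FR and 220.4, 254 and 192 at low R:FR. It fell in bud n-2 at low R:FR, by 1.51-fold (log2 difference -0.60 ± 0.14 SE, adjusted p = 0.0116), and was 1.92-fold lower than in bud n at low R:FR (log2 difference -0.94 ± 0.14 SE, adjusted p = 2.76e-05). Under high R:FR the 2 buds overlapped (log2 difference -0.00 ± 0.14 SE, adjusted p = 0.996).

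AT4G30800, an S11 gene of the body, gave 321, 298 and 309.7 in bud n at high R:FR and 337, 306 and 334 at low R:FR. AT4G30800 in bud n-2 gave 219, 222 and 240.0 at high R:FR and 165, 155 and 169.5 at low R:FR. All 6 bud n-2 values were below all 6 bud n values, and within bud n-2 the low R:FR arrays were below the high R:FR arrays. It was lower in bud n-2 by 1.36-fold at high R:FR (log2 difference -0.45 ± 0.08 SE, adjusted p = 0.000546) and by 2-fold at low R:FR (log2 difference -0.998 ± 0.08 SE, adjusted p = 5.65e-08), and fell with low R:FR in bud n-2 (log2 difference -0.48 ± 0.08 SE, adjusted p = 0.00201). AT5G58420, one of 3 measured S4 genes, gave 1334, 1104 and 1189.8 in bud n at high R:FR and 1216, 1208 and 1252 at low R:FR. AT5G58420 in bud n-2 gave 1085, 1229 and 1098 at high R:FR and 853, 927 and 818 at low R:FR. Its 3 lowest arrays were those of bud n-2 at low R:FR, and it fell there with low R:FR (log2 difference -0.39 ± 0.09 SE, adjusted p = 0.0115), while the positions at high R:FR did not pass the test (log2 difference -0.09 ± 0.09 SE, adjusted p = 0.495).

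S9 lies beside the decoding centre, and changes in it alter accuracy in yeast. AT5G39850, an S9 gene, gave 142, 162 and 159 in bud n at high R:FR and 205, 168 and 207 at low R:FR. AT5G39850 in bud n-2 gave 237, 252 and 231 at high R:FR and 219, 227 and 189.6 at low R:FR. Under high R:FR the bud n-2 arrays were all above the bud n arrays. It was, on the deposited scale, the only locus of the 35 called higher in bud n-2 than in bud n, 1.56-fold at high R:FR (log2 difference 0.64 ± 0.10 SE, adjusted p = 0.000135), a difference larger than the shift of the all-probe median; at low R:FR the groups overlapped and the difference was not called (log2 difference 0.14 ± 0.10 SE, adjusted p = 0.287). Its paralog AT5G15200 was not called in that comparison (log2 difference -0.09 ± 0.10 SE, adjusted p = 0.539).

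In the head, S19 is a protein that yeast and human cells need to mature the small-subunit RNA. AT5G61170, an S19 gene, gave 2328, 2007 and 1976 in bud n at high R:FR and 2007, 2259 and 2046 at low R:FR. AT5G61170 in bud n-2 gave 1442, 1541 and 1439.5 at high R:FR and 949.7, 1199 and 1182 at low R:FR. The 4 groups fell into 3 levels: both bud n groups overlapped, bud n-2 at high R:FR was below them, and bud n-2 at low R:FR was below that. The gene was lower in bud n-2 than in bud n by 1.42-fold at high (log2 difference -0.51 ± 0.10 SE, adjusted p = 0.000996) and 1.9-fold at low R:FR (log2 difference -0.93 ± 0.10 SE, adjusted p = 1.3e-06), and fell in bud n-2 with low R:FR (log2 difference -0.42 ± 0.10 SE, adjusted p = 0.0171). The brightest S19 gene, AT3G02080, gave 2673, 2096 and 2167 in bud n at high R:FR and 2393, 2453 and 2371 at low R:FR. AT3G02080 in bud n-2 gave 2099, 2465 and 2057 at high R:FR and 2017, 2205 and 2191 at low R:FR. Its positions overlapped at high R:FR, and at low R:FR bud n-2 lay below bud n by less than the test could call (log2 difference -0.17 ± 0.10 SE, adjusted p = 0.177). The third S19 gene, AT5G15520, gave 321, 289 and 307 in bud n at high R:FR and 328, 313 and 333 at low R:FR. AT5G15520 in bud n-2 gave 296, 363 and 303 at high R:FR and 253, 281 and 261 at low R:FR. It was lower in bud n-2 at low R:FR (log2 difference -0.29 ± 0.09 SE, adjusted p = 0.0127) and not called otherwise.

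S17 lies at the head and S10 at its tip near the message's entry. AT3G10610, an S17 gene, gave 1024, 781 and 774 in bud n at high R:FR and 793, 885 and 822 at low R:FR. AT3G10610 in bud n-2 gave 731, 678 and 653 at high R:FR and 413, 458 and 490.1 at low R:FR. All 3 bud n-2 arrays at low R:FR were below every other array, and the gene fell by 1.52-fold there (log2 difference -0.60 ± 0.11 SE, adjusted p = 0.00219). Between positions it was lower by 1.84-fold at low R:FR (log2 difference -0.88 ± 0.11 SE, adjusted p = 3.7e-06) and by 1.24-fold at high R:FR (log2 difference -0.31 ± 0.11 SE, adjusted p = 0.0319), the latter call being lost with quantile normalization. AT5G52650, an S10 gene, gave 2327, 2070.0 and 2134 in bud n at high R:FR and 2081, 2453 and 2059 at low R:FR. AT5G52650 in bud n-2 gave 1633, 1604 and 1585 at high R:FR and 1334, 1421 and 1455 at low R:FR. Every bud n-2 array was below every bud n array, at high R:FR (log2 difference -0.44 ± 0.09 SE, adjusted p = 0.00126) and at low R:FR (log2 difference -0.64 ± 0.09 SE, adjusted p = 1.68e-05), and the light response of bud n-2 was not called (log2 difference -0.20 ± 0.09 SE, adjusted p = 0.19). Also in the head, AT2G32060 (S12, log2 difference -0.42 ± 0.10 SE, adjusted p = 0.0174) and AT5G09510 (S15, log2 difference -0.38 ± 0.10 SE, adjusted p = 0.0264) fell in bud n-2 with low R:FR.

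On the platform, S14 and S3a lie where the message leaves. AT3G52580, an S14 gene, gave 1389, 1462 and 1314 in bud n at high R:FR and 1429, 1480.4 and 1362 at low R:FR. AT3G52580 in bud n-2 gave 1089.9, 1141 and 1013 at high R:FR and 924, 978 and 916 at low R:FR. The positions were separate at high R:FR (log2 difference -0.36 ± 0.08 SE, adjusted p = 0.00284) and at low R:FR (log2 difference -0.60 ± 0.08 SE, adjusted p = 1.43e-05), and the effect of low R:FR in bud n-2 was not called (log2 difference -0.20 ± 0.08 SE, adjusted p = 0.138). AT3G04840, an S3a gene, gave 3094, 2355 and 2612 in bud n at high R:FR and 2457, 2796 and 2499 at low R:FR. AT3G04840 in bud n-2 gave 2212, 1999 and 1829 at high R:FR and 1598, 1686 and 1712 at low R:FR. It was lower in bud n-2 by 1.33-fold at high R:FR (log2 difference -0.41 ± 0.11 SE, adjusted p = 0.00646) and by 1.55-fold at low R:FR (log2 difference -0.63 ± 0.11 SE, adjusted p = 0.000104). The S3a gene with the higher mean over all arrays, AT4G34670, gave 2863, 2372 and 2311 in bud n at high R:FR and 2496, 2473 and 2488 at low R:FR. AT4G34670 in bud n-2 gave 2309, 2373 and 2039.7 at high R:FR and 1902, 2082 and 2308 at low R:FR. Its positions overlapped at high R:FR and were separate at low R:FR, and neither comparison was called (log2 difference -0.16 ± 0.10 SE, adjusted p = 0.236 and log2 difference -0.25 ± 0.10 SE, adjusted p = 0.052).

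By place in the subunit, a grouping made after the values were seen, bud n-2 at low R:FR was lower than bud n for 7 of 11 head loci (median log2 difference -0.52), 7 of 9 platform loci (-0.49) and 9 of 15 body loci (-0.35), beside 23.3% of all probe sets. The fall with low R:FR in bud n-2 was called for 4 head, 0 platform and 4 body loci, with medians of -0.26, -0.20 and -0.21, beside 5.49% of all probe sets. Whether the places differed was not tested.

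In bud n, low R:FR left 0 of the 35 loci called higher (against 0.0700% of 14295 probe sets tested) and 0 lower (against 0.0140%). Called probe sets in either direction were 0.0839%, and 2 loci had an unadjusted p under 0.05 in the limma fit. The median log2 difference was 0.06 (range -0.09 to 0.34), beside 0.00 over all probe sets. In 5 loci the 3 low R:FR arrays lay above the 3 high R:FR arrays (5.81% of all probe sets), and in 0 below them (5.74%). The loci furthest up were the S2 gene AT3G57490 (log2 difference 0.34 ± 0.14 SE, adjusted p = 0.782) and the S9 gene AT5G39850 (log2 difference 0.32 ± 0.10 SE, adjusted p = 0.573), and neither passed the test.

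In bud n-2, 8 of the 35 loci fell with low R:FR (22.9%, against 5.49% of all probe sets tested) and 0 rose (against 4.34%). The 8 loci are those given above: AT4G30800, AT3G10610, AT5G58420, AT3G57490, AT5G59240, AT5G61170, AT2G32060 and AT5G09510. The median log2 difference was -0.21 (range -0.86 to 0.14, the lowest being the dim AT5G59240), beside 0.01 over all probe sets, and 33 of 35 estimates were negative (94.3%, against 48.7%). In 16 loci all low R:FR arrays were below all high R:FR arrays (13.9% of all probe sets), and in 0 above them (14.9%). AT4G30800 and AT3G10610 were called in all 12 fits that left out 1 array, and the other 6 loci lost the call in 1 to 4 of them. The count was 5 without replicate 2 of bud n-2 at high R:FR, and 4 and 5 without replicates 1 and 3 of bud n-2 at low R:FR.

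**Figure D2:**
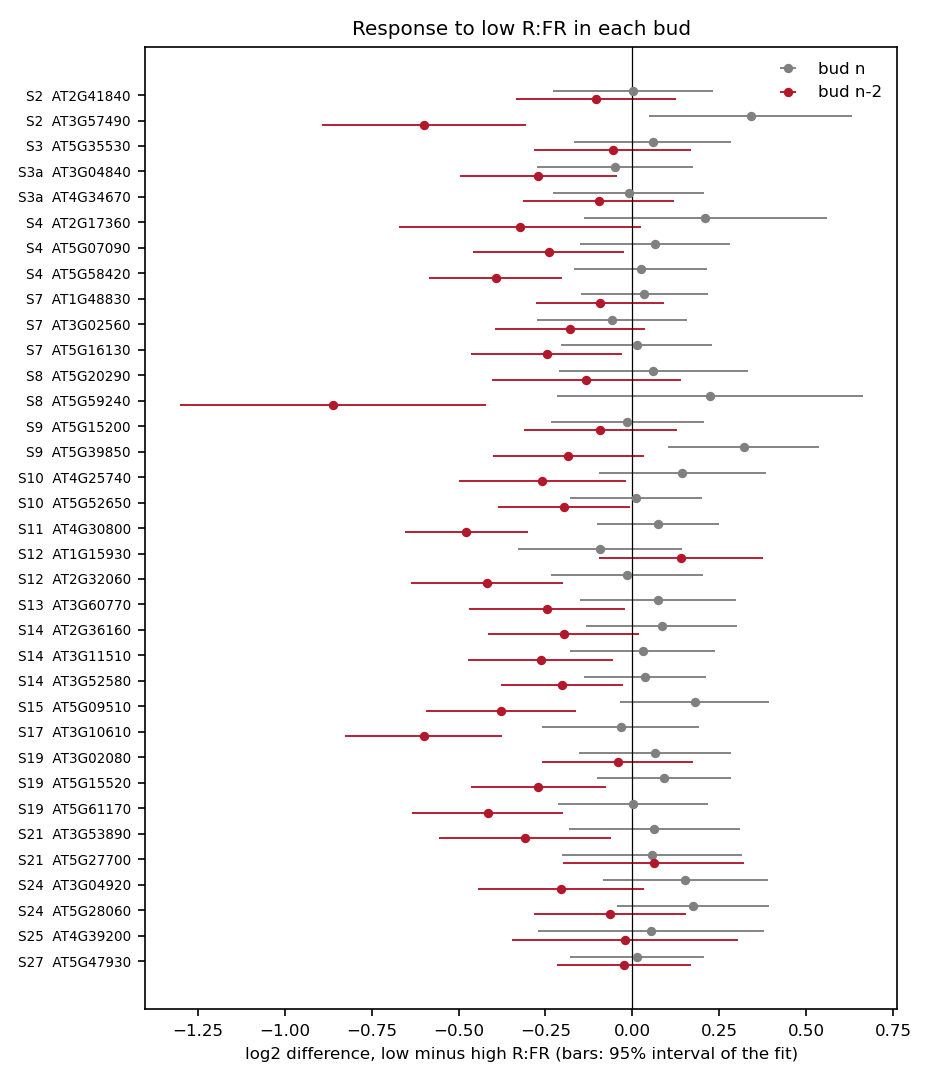
Log2 difference of low minus high R:FR for each of the 35 loci in bud n and in bud n-2, with the 95% interval of the limma fit. In bud n the estimates lie between -0.09 and 0.34 and in bud n-2 between -0.86 and 0.14.

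The light responses of the 2 buds were set against each other in an interaction term. Of the 35 loci, 33 had a lower response in bud n-2 than in bud n, by a median of -0.28 on the log2 scale (all probe sets, 0.00), and the difference was called for 2 (5.71%, against 0.686% lower, 0.343% higher and 1.03% in either direction). They were AT3G57490 (response 0.34 in bud n and -0.60 in bud n-2) and AT4G30800 (0.07 and -0.48). The call for AT3G57490 held in 4 and that for AT4G30800 in 3 of the 12 fits that left out 1 array. The count of 2 became 0 without replicate 2 or 3 of bud n at high R:FR, without any 1 replicate of bud n at low R:FR, or without replicate 1 or 3 of bud n-2 at low R:FR. It was 1 without replicate 2 or 3 of bud n-2 at high R:FR or replicate 2 of bud n-2 at low R:FR, and 4 without replicate 1 of bud n at high R:FR.

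Between positions at high R:FR, 9 of the 35 loci were lower in bud n-2 (25.7%, against 14.3% of all probe sets) and 1 was higher (2.86%, against 20.2%). The lower loci, besides AT4G30800, AT5G61170, AT5G52650, AT3G52580, AT3G04840 and AT3G10610, were AT5G47930 (S27, platform, log2 difference -0.27 ± 0.09 SE, adjusted p = 0.0319), AT1G48830 (S7, body, log2 difference -0.24 ± 0.09 SE, adjusted p = 0.0396) and AT3G60770 (S13, platform, log2 difference -0.28 ± 0.11 SE, adjusted p = 0.0492). The median was -0.16 (range -0.51 to 0.64), beside 0.04 over all probe sets tested. In 10 loci all bud n-2 arrays were below all bud n arrays (18.9% of all probe sets) and in 1 above them (26.1%). With quantile normalization 5 were lower (against 16.4%) and 2 higher (against 16.0%), the second being AT5G28060 (S24, log2 difference 0.31, adjusted p = 0.00707), and with each array centred on its median 21 were lower (against 28.3%) and 1 higher (against 12.2%). The calls for AT3G10610, AT5G47930, AT1G48830 and AT3G60770 ended with quantile normalization, and over the 12 fits that left out 1 array they held in 9, 9, 5 and 3. The 10 calls were 6 without replicate 1 of bud n at high R:FR and 15 without replicate 2 of bud n-2 at high R:FR.

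Between positions at low R:FR, 23 of the 35 loci were lower in bud n-2 (65.7%, against 23.3% of all probe sets) and 0 were higher (28.4%). The median was -0.42 (range -1.12, again AT5G59240, to 0.14), beside 0.05 over all probe sets tested, and 28 loci had all bud n-2 arrays below all bud n arrays (27.5%) and 0 above them (33.6%). All 9 loci lower at high R:FR and all 8 that fell in bud n-2 with low R:FR were among the 23. The light comparison of bud n-2 shares the bud n-2 low R:FR arrays with this one, and the comparison of positions at high R:FR shares no array with it. With quantile normalization 19 were lower (against 26.9%) and 0 higher (against 23.1%), with a median of -0.26, and the calls for AT1G48830 and AT3G02560 (S7), AT5G47930 (S27) and AT3G04920 (S24) ended. With each array centred on its median 30 were lower (against 36.4%) and 0 higher (against 18.2%), with a median of -0.62. The other 12 loci did not pass the test, with log2 differences from -0.25 (AT5G35530, S3, and AT4G34670, S3a) through 0.00 (AT4G39200, S25) to 0.14 (AT5G39850). Of the 6 probe sets shared between genes, 3 were lower here, those of the S2 gene AT1G58380 and 3 other loci (log2 difference -0.48, adjusted p = 0.00267), of the S17 genes AT2G04390 and AT5G04800 and another locus (-0.42, 0.00461) and of the S20 genes AT3G45030 and AT5G62300 (-0.36, 0.0205). In the other comparisons 0 of the 6 were called.

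**Figure D3:**
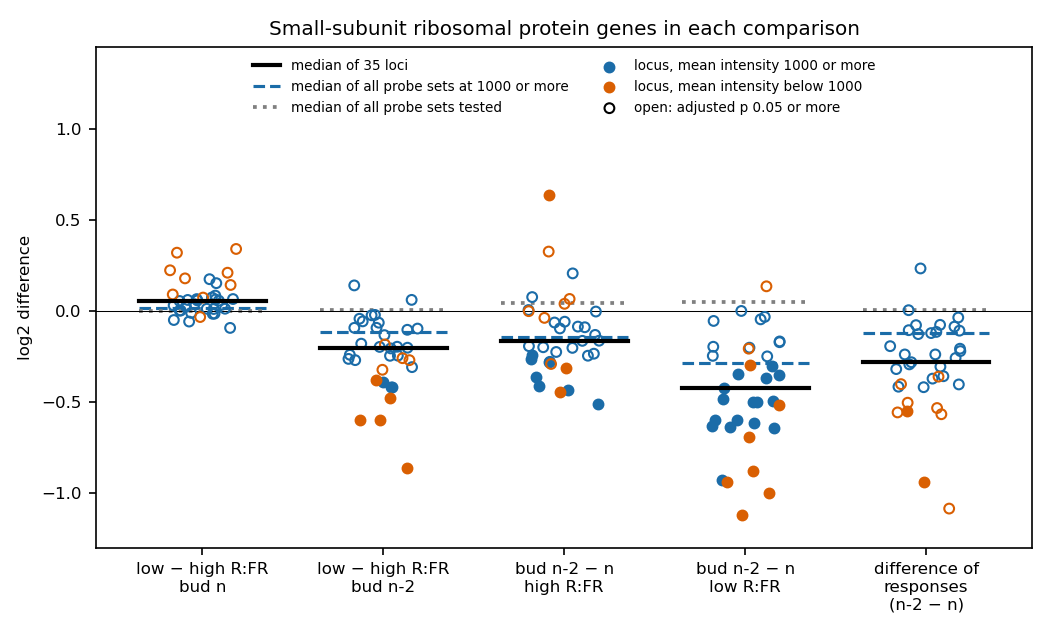
Log2 difference of each of the 35 loci (points; filled where called at an adjusted p under 0.05, coloured by mean intensity) in each of the 5 comparisons, with the medians of the loci, of all probe sets tested and of all probe sets with a mean intensity of at least 1000. The loci's median is lowest, at -0.42, for bud n-2 against bud n at low R:FR, where the bright probe sets' median is -0.28.

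Because most of these transcripts are bright, they were also set beside all bright probe sets, themselves included, a comparison chosen after the data were seen. Of the 504 probe sets with a geometric mean intensity of at least 1000, 26 belonged to member loci. Among all 504, the median log2 difference between positions was -0.14 at high and -0.28 at low R:FR, and 30.0% and 51.4% were lower. Among the 26 bright members the medians were -0.20 and -0.36, with 7 and 16 of the 26 lower. At high R:FR that share was below the 30.0% of all 504, and at low R:FR it was above their 51.4%. The higher share of lower loci at high R:FR given above was thus not seen for bright members beside bright probe sets. For low against high R:FR in bud n-2, the 504 had a median of -0.12 with 7.94% lower, and the 26 bright members a median of -0.19 with 3 lower. The other 9 members, all dimmer, had a median of -0.38 with 5 lower in that comparison, beside 5.40% of all probe sets below 1000. Between positions at low R:FR their median was -0.69 with 7 lower, beside 22.3%. Over the 35 loci, Spearman's rho of a probe set's mean log2 signal, which is not a transcript level, with the log2 difference was -0.53 for light in bud n and 0.69 for light in bud n-2. It was -0.08 between positions at high R:FR, 0.52 at low R:FR and 0.83 for the difference of responses. These describe loci that share the same 12 arrays; over all 14295 probe sets rho lay between -0.25 and 0.04.

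Paralogs of one protein did not always move together. Within the 12 families with several measured genes, the gap between the highest and lowest log2 difference had a median of 0.09 for the light response of bud n, 0.16 for that of bud n-2, 0.17 between positions at high and 0.35 at low R:FR. The SD over all 35 loci was 0.10, 0.20, 0.23 and 0.31 in the same order. A single log2 difference had an SE of, for example, 0.09 (AT5G52650) or 0.14 (AT3G57490). The smaller of these gaps are therefore of the size of such errors, and whether they exceed them was not tested. Between positions at low R:FR the gap was 0.76 in S19 and 0.74 in S2. In S8 it was 0.93 from the listed values of the dim AT5G59240 and 0.48 with dim values raised. The gap in S9 at high R:FR was 0.73, and in S10 the genes lay 0.05 apart at low R:FR. Under low R:FR, 3 of the 12 families had every measured gene lower in bud n-2, 8 had some and 1 had none.

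A ratio between paralogs on one array does not depend on that array's scaling factor, and only its change is used, since signals of different probe sets are not comparable as levels. For each family the log2 ratio of every other gene to its brightest one was compared between positions with an exact two-sided permutation test within light condition, over 400 arrangements, where the smallest p possible is 0.005. Of 16 pairs, 7 had an adjusted p under 0.05. In 4 of them p was the smallest possible (adjusted p = 0.02): relative to its brighter paralog, AT5G61170 (S19) changed by -0.60, AT3G53890 (S21) by -0.37, AT3G04840 (S3a) by -0.32 and AT3G04920 (S24) by -0.26 from bud n to bud n-2 on the log2 scale. The S21 pair missed the threshold with quantile normalization (change -0.27, adjusted p = 0.08) and without replicate 2 of bud n at high R:FR (-0.37, 0.0533).

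S21 and S24 were not described above; in yeast and human cells S21 is needed to mature the small-subunit RNA, and S24 is a body protein. The S21 gene AT3G53890 gave 2484, 1921 and 2051 in bud n at high R:FR and 2337, 2240.4 and 2131 at low R:FR. AT3G53890 in bud n-2 gave 1685, 2147 and 1622 at high R:FR and 1378, 1599.9 and 1402 at low R:FR. Its bud n-2 arrays at low R:FR were below every bud n array. The brighter paralog AT5G27700 gave 3356, 2626 and 2878 in bud n at high R:FR and 3238, 2895 and 3045 at low R:FR. AT5G27700 in bud n-2 gave 3129, 3121 and 2297 at high R:FR and 2862, 2783 and 3197 at low R:FR. AT3G53890 was lower in bud n-2 at low R:FR (log2 difference -0.62 ± 0.12 SE, adjusted p = 0.000307), with its groups separate, while AT5G27700 overlapped between positions (log2 difference -0.05 ± 0.12 SE, adjusted p = 0.732). The S24 gene AT3G04920 gave 1326, 1155 and 1163 in bud n at high R:FR and 1385, 1260.1 and 1402 at low R:FR. AT3G04920 in bud n-2 gave 1068, 1498 and 1126 at high R:FR and 1039.7, 1123 and 1005 at low R:FR. Here too the bud n-2 arrays at low R:FR were below every bud n array. Its paralog AT5G28060, with the higher mean over all arrays, gave 1209, 1138 and 1196 in bud n at high R:FR and 1386, 1278 and 1336 at low R:FR. AT5G28060 in bud n-2 gave 1301, 1624 and 1196 at high R:FR and 1294, 1403 and 1218 at low R:FR. AT3G04920 was lower in bud n-2 at low R:FR (log2 difference -0.35 ± 0.11 SE, adjusted p = 0.0147, a call lost with quantile normalization) and AT5G28060 was not called (log2 difference -0.03 ± 0.10 SE, adjusted p = 0.813).

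In the 3 other called pairs the ratio of AT2G17360 to AT5G07090 (S4) was higher in bud n-2 by 0.41, and that of AT5G39850 to AT5G15200 (S9) by 0.52 (exact permutation p = 0.015, adjusted p = 0.04 for both). The S9 pair missed the threshold with quantile normalization (0.38, adjusted p = 0.0571), and its change was 0.73 at high R:FR, with separate groups, and 0.30 at low R:FR, with overlapping groups. The ratio of AT3G52580 to AT3G11510 (S14) changed by -0.13 (exact permutation p = 0.02, adjusted p = 0.0457). Of the 7 called pairs, 4 kept an adjusted p under 0.05 without replicate 2 of bud n at low R:FR. The same held without replicate 1 or 2 of bud n-2 at low R:FR, and the S4, S9 and S14 pairs were those lost. The S4 pair also missed the threshold without replicate 1, 2 or 3 of bud n-2 at high R:FR (permutation adjusted p = 0.08, 0.08 and 0.06). With 1 array left out, the S14 pair kept its call only for some arrays of bud n. These were replicate 1 at high R:FR (permutation adjusted p = 0.0457) and replicate 3 at low R:FR (0.032). With an offset of 32 the S14 pair also missed the threshold (0.0571). The S8 pair, with AT5G59240 dim in bud n-2 at low R:FR, gave a change of -0.48 that did not pass (exact permutation p = 0.045, adjusted p = 0.09), and of -0.80 that did with quantile normalization (adjusted p = 0.04). The pair with the largest p was AT5G15520 and AT3G02080 (S19), whose ratio changed by 0.00 averaged over both lights (p = 0.985 by the same permutation test) and by -0.15 with quantile normalization (permutation p = 0.06). That mean joins a difference between positions of 0.13 at high R:FR, with overlapping groups, and of -0.12 at low R:FR, with separate groups. Within bud n-2 this ratio was lower at low than at high R:FR, by a log2 difference of -0.23 and with separate groups, which was not tested. Near-identical paralogs may cross-hybridise on these probe sets, and such pairs are uncertain for that reason.

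**Figure D4:**
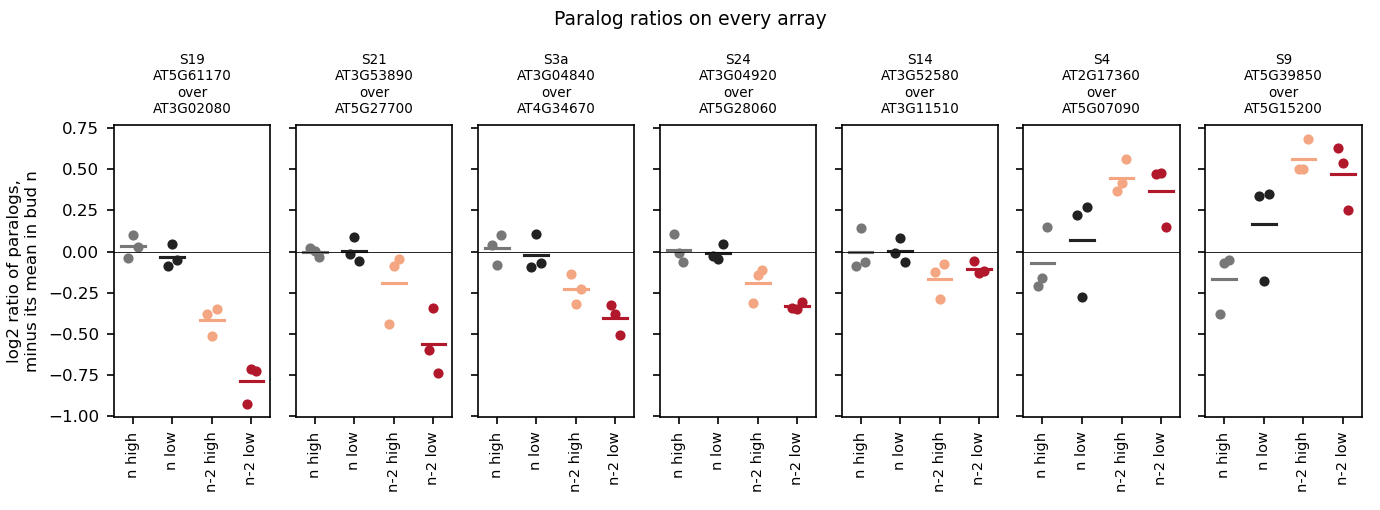
Log2 ratio of a gene to the paralog with the higher mean over all arrays, on every array (points), minus its mean in bud n, by bud position and light. The 7 pairs with an adjusted p under 0.05 in the permutation test are shown. On average the S19, S21, S3a, S24 and S14 pairs lie lower in bud n-2, and the S4 and S9 pairs lie higher.

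Other genes of the ribosome's life cycle came from lists with few named probe sets. Of 31 ribosome biogenesis genes 10 were tested, and 4 fell in bud n-2 with low R:FR, beside 5.49% of all probe sets. The median log2 difference of the 10 was -0.27, with AT3G05060 furthest (-0.69 ± 0.09 SE, adjusted p = 0.000111). Between positions at low R:FR 7 were lower and 2 higher in bud n-2 (median -0.44), beside 23.3% and 28.4% of all probe sets. At high R:FR 1 was lower and 3 higher, beside 14.3% and 20.2%. Among the 3 higher was PRH75, an RNA helicase (0.57 ± 0.10 SE, adjusted p = 0.000424). With quantile normalization PRH75 kept both calls, while DIM1A and AT3G51270, the others higher, did not. With median centring PRH75 kept its call at high R:FR (0.40, adjusted p = 0.00733) and lost it at low R:FR (0.22, adjusted p = 0.097). Of 29 translation factors 3 were tested, and all 3 were lower in bud n-2 at low R:FR, beside 23.3% of all probe sets. Among them was EIF4A-2, an RNA helicase of initiation (-0.46 ± 0.13 SE, adjusted p = 0.00595). Of 9 genes of the TOR kinase pathway, which promotes ribosomal protein synthesis, 3 were tested and 0 were called for light in either bud (lowest adjusted p 0.35 in the limma fit). Under high R:FR RAPTOR2 was lower in bud n-2 (-0.44, adjusted p = 0.0255) and at low R:FR RAPTOR1 was higher (0.34, adjusted p = 0.0211), a call lost with quantile normalization (0.21, 0.13).

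Of 10 cell division genes 4 were tested, and these moved with position beside the ribosomal protein genes. AUR1 and AUR2, mitotic Aurora kinases, were lower in bud n-2 by log2 differences of -1.62 and -1.45 at high R:FR and -1.48 and -1.50 at low R:FR. Of the 4 genes, 4 were called lower at high and 3 at low R:FR, beside 14.3% and 23.3% of all probe sets. Light in bud n-2 called none of the 4 in the limma fit, beside 5.49% of all probe sets lower and 4.34% higher. The largest difference was -0.16 (PRL, adjusted p = 0.367). Of 10 flower and anther genes 2 were tested. AMS, a tapetum regulator, was higher in bud n-2 at low R:FR (1.14, adjusted p = 7.28e-05), beside 28.4% of all probe sets. It was not called at high R:FR (-0.03, adjusted p = 0.929 in the limma fit). SPL, above the 40th percentile on 8 of 12 arrays, was called between positions at neither light (0.29, adjusted p = 0.389 at low R:FR). The root marker GH9C1 was below the 40th percentile on all arrays, and no photosynthesis gene had a named probe set. The part of these genes, of the 25S, actin and GAPDH controls and of the all-probe shift in the differences between positions was not tested.

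**Figure D5:**
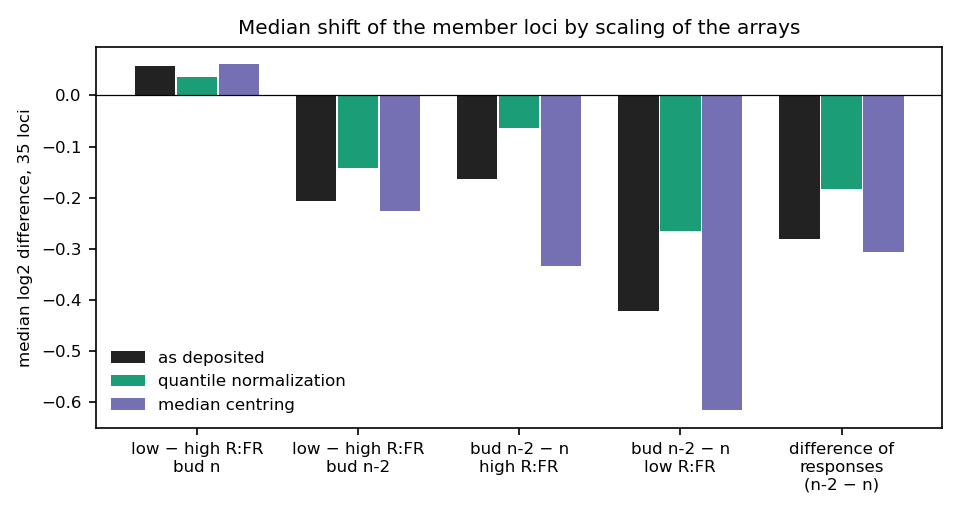
Median log2 difference of the 35 loci in each comparison with the arrays as deposited, after quantile normalization and after centring each array on its median. All 3 scalings give a negative median for bud n-2 against bud n and for low against high R:FR in bud n-2, but between positions at high R:FR it ranges from -0.06 to -0.33.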

How the data were processed

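Each deposited value is a probe set's linear-scale intensity, which the authors made with MAS5 and GCOS, per the submitters' processing notes, and versions are not given in the sources. MAS5 scales each array by a single factor. Probe sets were assigned to loci with GEO's platform annotation and families with the published nomenclature, which the annotation tables do not hold. The members and lists were chosen with earlier results of these data known. The 64 control probe sets were left out, and probe sets above their array's 40th percentile on at least 3 arrays were kept (14295 of 22810). Log2 values without an offset were fitted with limma 3.58.1 in R 4.3.3 (4 group means, prior variance with a trend), Benjamini-Hochberg adjustment over all probe sets and a threshold of 0.05, and the scripts were tested on simulated data. The label's replicate numbers did not pair the samples: 18 same-number pairs correlated at -0.143 to 0.075, other numbers at -0.108 to 0.13. Values on every array are printed for up to 6 called members by smallest p in each comparison, the brightest and dimmest members, and the paralog pairs with the 4 smallest and the largest p; from other lists, up to 3 called genes a comparison. Alternatives tried were median centring, quantile normalization, an offset of 32 on the intensity before log2, other filters, dim values raised, a prior without trend, array weights, a replicate block and leaving out each array. No sequences were used here.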

Additional observations from a re-analysis of the deposited data

Results flagged for a closer look

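For 2 of the 35 loci the interaction term of the limma fit passed the threshold. For AT3G57490, an S2 gene, the log2 response in bud n-2 minus that in bud n was -0.9397 (SE 0.20, adjusted p = 0.0337), with all 3 low R:FR arrays below the high R:FR arrays in bud n-2 and all 3 above them in bud n. For AT4G30800, an S11 gene, it was -0.5508 (SE 0.12, adjusted p = 0.0379), with the low R:FR arrays below the high ones in bud n-2 and the light groups overlapping in bud n. With a prior variance that has no trend the adjusted p was 0.108 and 0.0978. Over the 12 fits that left out 1 array, the calls held in 4 and 3.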

How the results depend on the processing

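Depending on the scaling, the median log2 difference of the 35 loci between positions was -0.064 with quantile normalization and -0.3333 with median centring under high R:FR (deposited scale -0.1641), and -0.2643 and -0.6161 under low R:FR (-0.4225). For the difference of responses it was -0.1825 with quantile normalization (-0.2817). Median centring called 22 loci (21 lower) between positions under high R:FR. The 2 calls for the difference of responses became 0 with a prior without trend and 6 with array weights. No called result changed direction under the alternatives; the cause of these shifts was not tested. Leaving out 1 array gave 0 to 0 calls for light in bud n, 4 to 10 in bud n-2, 6 to 15 and 22 to 25 between positions under high and low R:FR, 0 to 4 for the difference and 4 to 7 paralog pairs. The medians ranged over 0.0136 to 0.0999, -0.2754 to -0.1497, -0.2279 to -0.0951, -0.4664 to -0.3814 and -0.3492 to -0.199. With the replicate number as a block, which the pairing check did not bear out, the calls were 0, 8, 8, 23 and 2. Alternatives for single loci and pairs were also counted, without taking in every fit that left out 1 array. Of those counted, 1898 kept their side of the threshold, 37 lost it and 20 gained it. The 1898 include tests that were not called to begin with, so they do not measure how well calls held. AT5G59240 had no value with the filter at the 60th percentile, and its fitted falls rest on values near background. Probe sets of other genes cannot be ordered by level, and 3 arrays a group limit every test.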
